A study of Homo sapiens with 12 samples.

Results

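The 50 genes described here encode Wnt ligands, their receptors and co-receptors, the secreted antagonists of the pathway and its feedback genes. They were taken by name from the 57820 gene identifiers in the deposited tables, and all 50 were found. The list has 18 WNT ligands, 10 frizzled receptors, 5 co-receptors (LRP5, LRP6, ROR1, ROR2 and RYK), 9 secreted antagonists (the DKK, SFRP, FRZB and WIF1 genes) and 8 feedback genes (AXIN2, LGR4, LGR5, RNF43, ZNRF3, NKD1, LEF1 and TCF7). RNA was sequenced from 12 libraries of G401, an established human malignant rhabdoid tumour cell line whose labelled genotype is SMARCB1(-/-) in every library. SMARCB1 belongs to the core of SWI/SNF (BAF) complexes, which remodel chromatin. Doxycycline induced GFP, a control protein, in 6 libraries and SMARCB1 in the other 6. In each of these cell states 3 libraries came from cells given the solvent DMSO and 3 from cells given dBRD9-A for 24 h. dBRD9-A is a degrader of BRD9, a bromodomain protein found in the non-canonical form of BAF. All groups thus shared the line, its SMARCB1(-/-) genotype and an induced protein, and an uninduced group was not analysed here. The labels do not say whether the inducible cells were a clone, how long doxycycline was given, or whether replicates were separate cultures, so the p values below measure the spread between these libraries, which may be technical.

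Wnt ligands are secreted lipid-modified proteins that bind frizzled receptors. With LRP5 or LRP6 as a co-receptor, the ligand blocks the destruction complex, so that β-catenin accumulates and acts in the nucleus with transcription factors of the TCF/LEF family. Other ligands, of which WNT5A and WNT11 are the best known, signal mainly without β-catenin, through frizzleds, ROR2 or RYK, in cell polarity and movement. Dickkopf proteins such as DKK1 bind LRP5 and LRP6, secreted frizzled-related proteins such as FRZB bind ligands, and WIF1 binds ligands as well. AXIN2, LEF1, TCF7, LGR5, RNF43, ZNRF3 and NKD1 are commonly induced by β-catenin and adjust the pathway in turn. The kidney is a frequent site of rhabdoid tumours, and in the developing kidney Wnt signals control the induction of nephrons.

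The promoters of 3 genes with some of the widest differences below are shown, because they stand for an antagonist that fell with SMARCB1 (DKK1), a feedback receptor that rose (LGR4) and a feedback transcription factor that went from no count to a low count (LEF1). Each is the 250 bases before the gene start in RefSeq, build GRCh38.p14, 5′ to 3′ on the gene's strand. Capitals mark matches to a core motif of TCF/LEF factors, CTTTG followed by 2 bases that are each A or T, searched on both strands (the matches do not overlap each other). DKK1 lies on the plus strand (chr10:52314031-52314280), LGR4 on the minus strand (chr11:27472791-27473040) and LEF1 on the minus strand (chr4:108166302-108166551).
DKK1: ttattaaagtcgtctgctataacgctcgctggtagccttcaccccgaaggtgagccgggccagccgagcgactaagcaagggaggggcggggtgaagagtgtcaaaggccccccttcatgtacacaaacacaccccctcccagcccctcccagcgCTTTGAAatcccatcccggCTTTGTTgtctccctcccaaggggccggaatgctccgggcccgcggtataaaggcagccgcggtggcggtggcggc
LGR4: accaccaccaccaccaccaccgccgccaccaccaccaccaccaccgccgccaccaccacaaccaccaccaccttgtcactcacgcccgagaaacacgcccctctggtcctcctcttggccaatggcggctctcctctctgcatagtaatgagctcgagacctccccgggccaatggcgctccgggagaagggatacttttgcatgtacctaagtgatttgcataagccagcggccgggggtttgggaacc
LEF1: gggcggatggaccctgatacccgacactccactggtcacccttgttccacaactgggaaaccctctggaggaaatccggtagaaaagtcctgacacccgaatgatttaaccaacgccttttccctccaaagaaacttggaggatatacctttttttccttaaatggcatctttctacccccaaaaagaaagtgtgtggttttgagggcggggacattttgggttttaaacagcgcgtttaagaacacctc
The DKK1 stretch holds 2 matches, which begin at -95 and -76 from the gene start, and the LGR4 and LEF1 stretches hold none. RefSeq windows of 300 bases (250 before to 50 after the start) were at hand for 33 of the 50 genes, as 38 windows. A match stood in 3 of the 38 windows (7.89%), those of DKK1, WNT3 and 1 of the windows of TCF7, against 13.8% of all 35116 windows of this length. The median GC content was 68.0% in the 38 windows and 58.7% in all. These matches are descriptions of the letters, and binding was not measured.

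Counts assigned to genes came to between 34974281 and 58536059 per library. SMARCB1 had 0 to 2 counts in each GFP library and 53033 to 110893 in each SMARCB1 library, so the libraries match their labels. Its level was 1870 ± 59.4 CPM (SD, n = 3) in SMARCB1 cells with DMSO and 1310 ± 27.0 with dBRD9-A. This is a fall of 0.52 on the log2 scale (edgeR, adjusted p = 4.95e-08). The fall moves with every comparison below that uses dBRD9-A-treated SMARCB1 cells, the interaction included, and its part in them was not tested. CPM relate a gene's count to the total of its library, with libraries scaled by TMM (trimmed mean of M values). BRD9 mRNA, which need not follow the protein, had 38.3 to 47.4 CPM over the 4 group means. The rhabdoid markers VIM, KRT8 and KRT18 had group means of 1270 CPM or more, and in DMSO they differed between GFP and SMARCB1 cells, with VIM at 1320 and 2310 CPM, KRT8 at 2310 and 1900 and KRT18 at 2530 and 1690. Of 12 markers of leukocytes, endothelium, stroma and mature kidney epithelium, 11 were matched and 7 had at most 3 counts in every library, PTPRC, LUM, DCN and UMOD among them. Their summed level was 72.1 to 81.0 CPM in GFP cells with DMSO, 53.9 to 59.9 with dBRD9-A, 83.2 to 88.9 in SMARCB1 cells with DMSO and 77.6 to 83.4 with dBRD9-A. Nearly all of that sum was PDGFRB (53.5 CPM at the lowest, 87.5 at the highest). The endothelial gene VWF had 0 to 5 counts in GFP libraries and 22 to 50 in SMARCB1 libraries. The part of these markers in the results was not tested, and in bulk RNA fewer cells of a type and less RNA per cell cannot be told apart.

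Of the 50 genes, 14 were silent, taken as at most 3 counts in each of the 12 libraries, and 6 of those had 0 counts throughout. The silent genes were the ligands WNT1, WNT2, WNT7A and WNT16, the receptors FZD6, FZD9 and FZD10, the co-receptor ROR1, the antagonists DKK4, SFRP1, SFRP2, SFRP4 and WIF1, and the feedback ligase RNF43. Antagonists had the most silent members for their number, 5 of 9. A count of 3 was 0.0516 to 0.0847 CPM depending on the library, which is the level these libraries could have missed (counting error only). A further 8 genes had more than 3 counts in some library but did not pass the filter on low counts. They were WNT3A (0 to 9 counts), WNT7B (0 to 14), WNT8B (3 to 15), WNT9B (0 to 4), ROR2 (0 to 6), DKK2 (0 to 4), LGR5 (0 to 4) and NKD1 (1 to 7). The remaining 28 were tested, namely 10 ligands, 7 receptors, 3 co-receptors, 3 antagonists and 5 feedback genes. A gene that passed the filter only through the group where it was high had to differ, and 3 of the 28 (LEF1, FZD8 and WNT10A) had a group with no library above 3 counts. WNT3 and WNT6 were likewise carried past the filter by the state where they were high. Their low state had 6 to 14 counts in GFP libraries (WNT3) and 5 to 15 in SMARCB1 libraries (WNT6).

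In DMSO, SMARCB1 induction was followed by a lower level of the ligand WNT11 and of the antagonists DKK1 and FRZB, and by a higher level of every tested frizzled, co-receptor and feedback gene. The tested ligands divided, 6 lower and 3 higher. Of those lower, WNT5A, WNT6 and WNT10A carry limits given below. Of the 28 genes tested, 19 were higher and 8 lower (edgeR quasi-likelihood test, Benjamini-Hochberg adjusted p under 0.05 over 15750 genes), under TMM as under spike-in scaling except that WNT5A turned from -0.13 to 0.04 and lost its call. Over all genes 65% were called in this comparison, 33.5% higher and 31.6% lower, so the share called among these 28 is to be read against a background in which most genes were called. Among the 28, 14 were called and differed by 1 or more on the log2 scale, 9 higher and 5 lower, against 14.6% of all genes. These 14 include LEF1, FZD8 and WNT10A, whose difference was fixed by the filter. WNT3 and WNT6, also among them, passed the filter through their high state, with counts near its minimum of 10 in the low state. The counts, shares and medians in this paragraph include these genes and are descriptive only. Libraries of the GFP and SMARCB1 groups did not overlap for 27 of the 28, against 68.7% of all genes. The median log2 fold change of the 28 was 0.305 and their median size 0.995, beside -0.00472 and 0.284 over all genes. Scaling libraries to the spike-in RNAs instead moved the median of all genes in this comparison to 0.165.

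**Figure D1:**
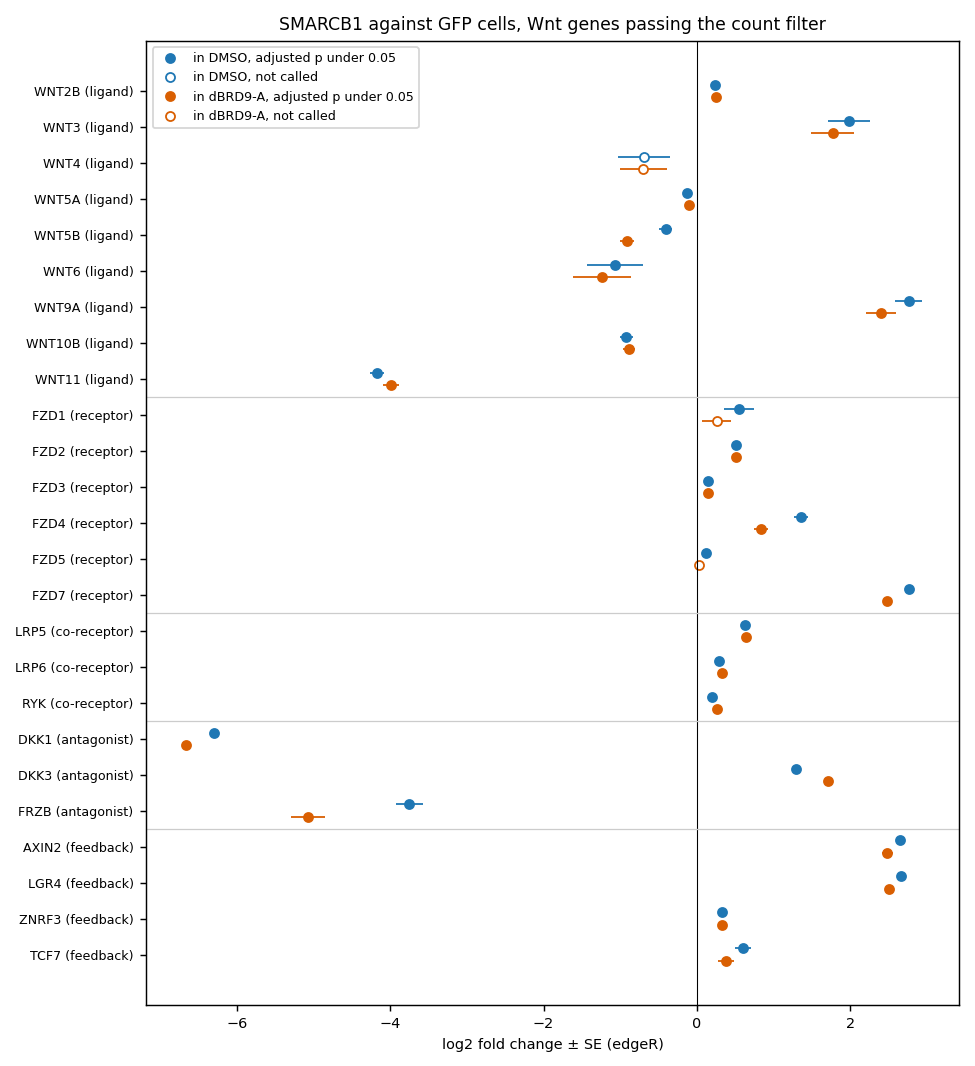
Log2 fold change of SMARCB1 against GFP cells (x axis) for 25 tested Wnt genes in DMSO (blue) and in dBRD9-A (orange), with bars of 1 SE from edgeR and filled points for adjusted p under 0.05. LEF1, FZD8 and WNT10A are left out because a group had no library above 3 counts. DKK1, WNT11 and FRZB lie far to the left and FZD7, LGR4, AXIN2 and WNT9A to the right in both treatments, while with spike-in scaling WNT2B, FZD3, LRP6 and RYK turn to -0.08, -0.19, -0.01 and -0.06 in dBRD9-A and WNT5A to 0.04 in DMSO.

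Among the ligands, WNT5A was the most abundant per length and changed little. WNT5A, the main ligand of β-catenin-independent signalling, had 64.3 CPM per kilobase of exon in GFP cells with DMSO and 58.7 in SMARCB1 cells, which is a difference of -0.13 ± 0.03 on the log2 scale (SE, edgeR, adjusted p = 0.000216). WNT2B came next at 17 and 20 CPM per kilobase, then WNT11 at 13.4 and 0.738. WNT10B, which acts through β-catenin, fell from 3.50 to 1.85 CPM per kilobase, a log2 fold change of -0.92. The summed level of the 18 ligands was 101 ± 2.09 CPM per kilobase (SD, n = 3) in GFP cells with DMSO and 84.2 ± 1.70 in SMARCB1 cells. WNT5A held 63.7% of that sum in GFP cells and 69.7% in SMARCB1 cells. WNT2B held 16.8% and 23.8%, and WNT11 13.3% and 0.877%. The lower ligand sum in SMARCB1 cells thus came with a ligand pool that WNT5A and WNT2B mostly made up.

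WNT11, a ligand of cell movement and kidney branching, had the widest fall of any ligand whose groups were both above the floor. Its level was 31.1, 34.2 and 31.6 CPM in the GFP libraries with DMSO. In the SMARCB1 libraries with DMSO it was 1.99, 1.39 and 1.94 CPM. The groups were far apart, and the log2 fold change was -4.17 ± 0.09 (SE, edgeR, adjusted p = 9.85e-17), which is 18-fold lower. WNT10A, a ligand of the β-catenin branch, had 15, 8 and 15 counts in the GFP libraries and 0, 1 and 0 in the SMARCB1 libraries. It was at least 3.05-fold lower, taking 3 counts per library as the floor. WNT6, another β-catenin ligand, had 0.479, 0.267 and 0.518 CPM against 0.209, 0.126 and 0.258, and its groups were close, with the highest SMARCB1 library just under the lowest GFP library. WNT6 passed the filter through its GFP libraries, so its difference is descriptive only. Its log2 fold change was -1.07 ± 0.37 (edgeR, adjusted p = 0.0184), and the call was lost with DESeq2 (adjusted p = 0.0723) and without GFP DMSO replicate 1 (0.0618), GFP DMSO replicate 3 (0.0836) or SMARCB1 DMSO replicate 2 (0.0823).

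The ligands that rose were minor ones, apart from WNT2B. WNT9A, which acts in joint and skeletal development, had 0.373, 0.363 and 0.570 CPM in GFP libraries. The SMARCB1 libraries had 3.04, 3.07 and 2.92 CPM. This is 6.76-fold higher, a log2 fold change of 2.76 ± 0.18 (edgeR, adjusted p = 3e-10). WNT3, a ligand of the β-catenin branch, rose from 0.248, 0.145 and 0.156 CPM to 0.837, 0.731 and 0.671 CPM. The groups did not overlap, though the counts behind them were 6 to 14 in GFP libraries of both treatments and 29 to 39 in SMARCB1 libraries, and the log2 fold change was 1.98 ± 0.27 (adjusted p = 4.34e-06). WNT3 passed the filter through its SMARCB1 libraries, so this difference is descriptive only. WNT2B, an abundant ligand of the β-catenin branch, had 207, 218 and 214 CPM against 246, 251 and 257. Its groups were apart by a small step, a log2 fold change of 0.24 ± 0.03 (adjusted p = 4.1e-07). WNT5B, a close relative of WNT5A, went the other way, from 8.63, 8.84 and 9.23 CPM to 6.41, 7.28 and 6.48, which is -0.41 ± 0.08 on the log2 scale (adjusted p = 0.000346). WNT4, a ligand of nephron formation, was the only tested gene of the 28 not called here (log2 fold change -0.69 ± 0.34, adjusted p = 0.0836), with 0.373, 0.315 and 0.207 CPM overlapping 0.209, 0.126 and 0.206. Without GFP DMSO replicate 3 the adjusted p of WNT4 was 0.0351.

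All 7 tested frizzleds were higher in SMARCB1 cells with DMSO, and FZD7 had the widest rise of those measured above the floor in both states. Over all genes 33.5% were called higher. The 7 include FZD8, whose difference was fixed by the filter, so this count is descriptive only. FZD7, a receptor often studied in embryonic and tumour cells, had 7.08, 7.51 and 7.59 CPM in GFP libraries. In SMARCB1 libraries it had 51.0, 49.9 and 50.5 CPM. Every SMARCB1 library was several times above every GFP library, and the log2 fold change was 2.77 ± 0.05 (edgeR, adjusted p = 2.52e-18), or 6.83-fold. FZD4, which also binds the ligand norrin in blood vessels of the eye, had 3.09, 3.05 and 3.25 CPM against 8.19, 8.21 and 7.86, a non-overlapping rise of 1.36 ± 0.09 on the log2 scale (adjusted p = 2.16e-10). FZD8 had 0, 0 and 3 counts in GFP libraries with DMSO and 14, 18 and 25 in SMARCB1 libraries, so it was at least 5.73-fold higher while remaining low.

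The frizzled that was most abundant per length stayed the same, but the pool grew. FZD2 had 30.4 CPM per kilobase in GFP cells and 43.4 in SMARCB1 cells, a log2 fold change of 0.51 ± 0.05. FZD5 followed at 15.1 and 16.4 CPM per kilobase (log2 fold change 0.12). FZD3 had 4.95 and 5.50 (log2 fold change 0.15), and FZD1 was low in both at 0.0899 and 0.131 (log2 fold change 0.55 ± 0.20). The sum over the 10 frizzleds was 52.9 ± 0.588 CPM per kilobase (SD, n = 3) in GFP cells with DMSO and 79.7 ± 1.07 in SMARCB1 cells. FZD7 held 3.62% of the sum in GFP cells and 16.4% in SMARCB1 cells, while the share of FZD5 went from 28.6% to 20.6%. Ligand and frizzled sums therefore stood in opposite order between the cell states under TMM scaling, ligands lower and frizzleds higher with SMARCB1.

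**Figure D2:**
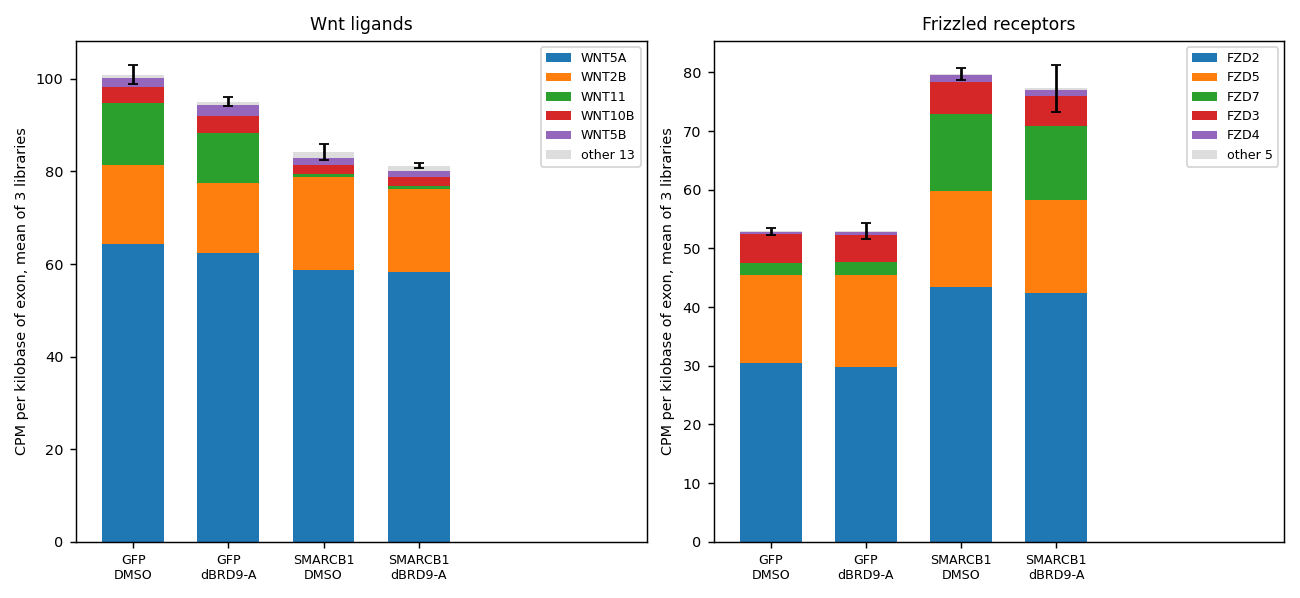
Stacked mean level of the 18 ligands (left) and the 10 frizzleds (right) in CPM per kilobase of exon (y axis) for the 4 groups of 3 libraries, with error bars of 1 SD of the sum. The ligand stack is lower in SMARCB1 cells (84.2 and 81.3 against 101 and 95.1) and the WNT11 band nearly vanishes, while the frizzled stack is higher (79.7 and 77.3 against 52.9 and 53.0) with a wider FZD7 band.

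All 3 tested co-receptors were higher in SMARCB1 cells with DMSO, under TMM as under spike-in scaling. Under TMM 33.5% of all genes were called higher. LRP5, which pairs with frizzleds in β-catenin signalling, had 37.5 ± 0.0673 CPM (SD, n = 3) in GFP cells with DMSO and 57.6 ± 1.76 in SMARCB1 cells, and its log2 fold change of 0.62 ± 0.05 was the largest of the 3 tested. LRP6, its paralogue, differed by 0.29 ± 0.04 and RYK, a receptor-like kinase that binds WNT5A, by 0.19 ± 0.03. Per length in SMARCB1 cells they ranked RYK at 17.3, LRP5 at 9.35 and LRP6 at 8.03 CPM per kilobase.

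The antagonists divided. DKK1, the inhibitor of LRP5 and LRP6, was the Wnt gene with the highest level per length in GFP cells, 91.2 CPM per kilobase, above WNT5A. It had 202, 201 and 201 CPM in the GFP libraries with DMSO. In the SMARCB1 libraries it had 2.51, 2.85 and 2.37 CPM. The groups were far apart and narrow, and DKK1 was 78.7-fold lower, a log2 fold change of -6.30 ± 0.05 (edgeR, adjusted p = 2.61e-23). FRZB, a secreted frizzled-related protein first found in cartilage, fell from 4.85, 5.06 and 4.99 CPM to 0.366, 0.302 and 0.413 CPM, which is 13.5-fold lower with a log2 fold change of -3.75 ± 0.18 (adjusted p = 3.86e-12). DKK3, a divergent dickkopf that is not a typical LRP5 and LRP6 inhibitor, rose instead. It had 21.8, 23.0 and 23.1 CPM in GFP libraries and 55.8, 54.9 and 55.2 CPM in SMARCB1 libraries, a non-overlapping difference of 1.29 ± 0.04 on the log2 scale (adjusted p = 2.75e-14).

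All 5 tested feedback genes were higher with SMARCB1 in DMSO, where 33.5% of all genes were called higher. The 5 include LEF1, whose difference was fixed by the filter, so this count is descriptive only. LGR4, the R-spondin receptor that protects frizzleds from removal, had 18.2, 18.4 and 19.3 CPM in GFP libraries. It had 117, 116 and 121 CPM in SMARCB1 libraries. That was 6.31-fold higher with no overlap, a log2 fold change of 2.66 ± 0.04 (edgeR, adjusted p = 1.56e-19). AXIN2, the destruction-complex scaffold most used as a readout of β-catenin, rose from 4.42, 4.36 and 4.6 CPM to 28.0, 29.1 and 27.3 CPM, a log2 fold change of 2.65 ± 0.06 (adjusted p = 2.2e-16). AXIN2 overlaps AC004805.1 on the same strand in the annotation used here, so reads could be divided between them. LEF1, a DNA-binding partner of β-catenin, had 0 counts in all 6 GFP libraries of both treatments and 15, 18 and 25 in the SMARCB1 libraries with DMSO. It was at least 5.85-fold higher against the floor of 3 counts per library, at 0.425 ± 0.0308 CPM (SD, n = 3) and thus still low. LEF1 shares its locus with an antisense gene, LEF1-AS1, and the use of strand in counting is not given in the sources used here. TCF7, a relative of LEF1, and ZNRF3, a ubiquitin ligase that removes frizzleds, rose less, by 0.60 ± 0.10 and 0.32 ± 0.04 on the log2 scale.

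**Figure D3:**
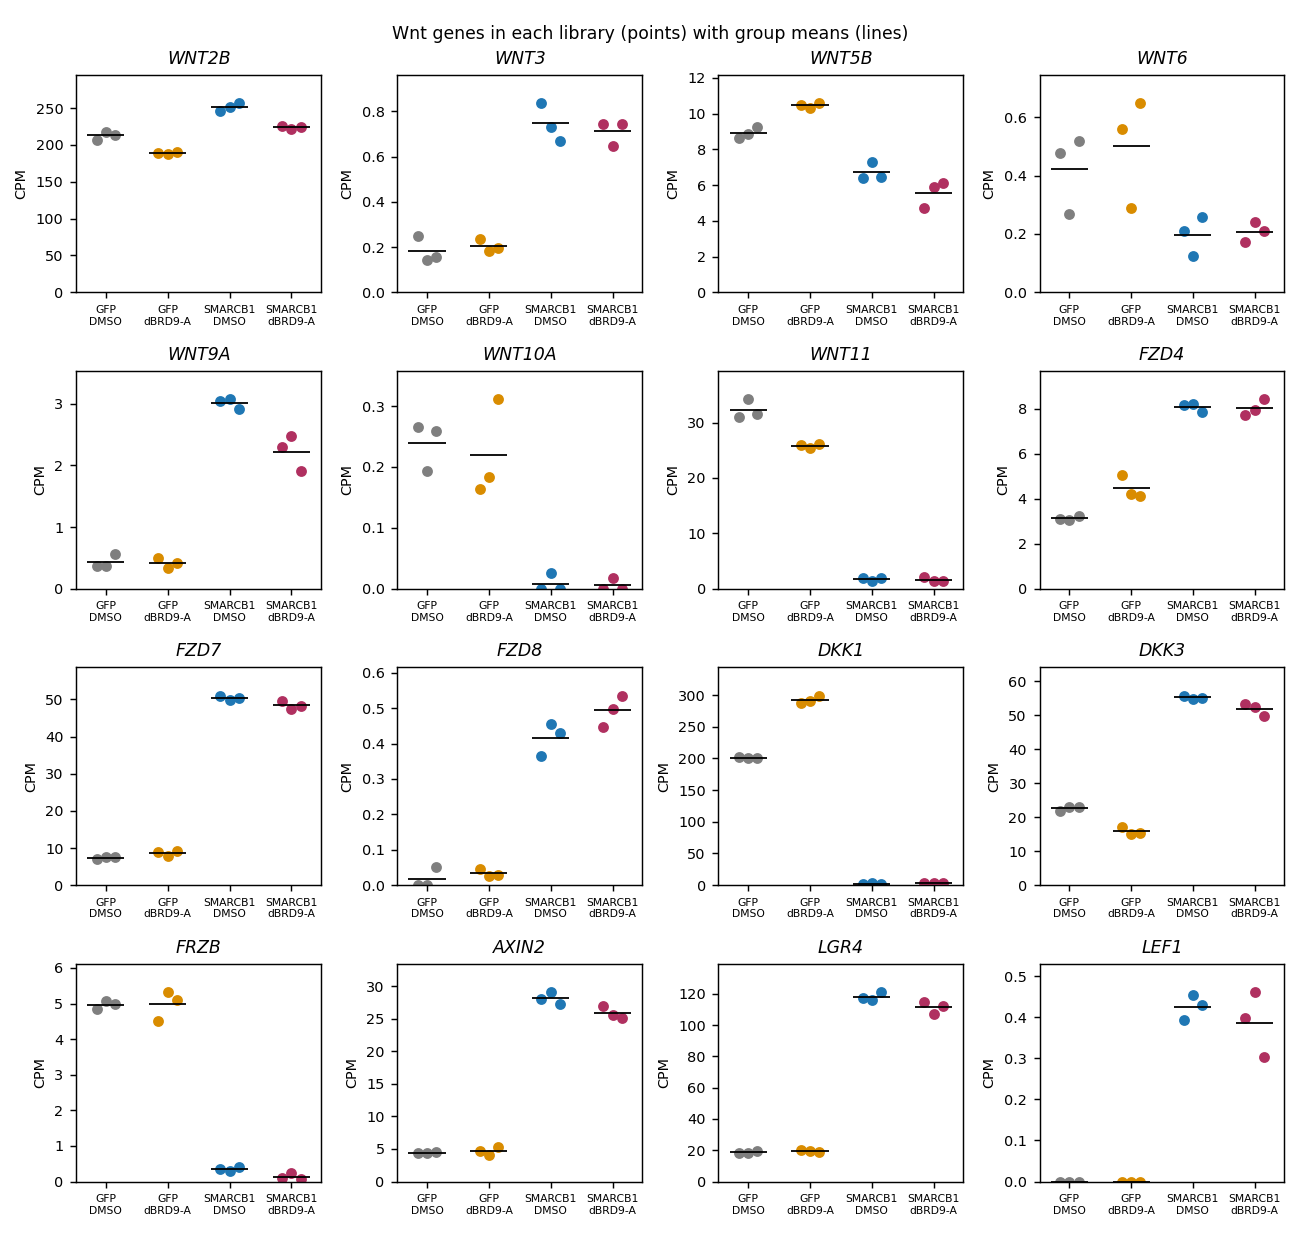
Level of 16 Wnt genes in CPM (y axis, from 0, each panel with its own scale) in every library (points) of the 4 groups (x axis), with lines at the group means. DKK1, WNT11, FRZB and WNT10A are high in both GFP groups and low in both SMARCB1 groups, FZD7, LGR4, AXIN2 and LEF1 the reverse, and DKK1 and DKK3 move in opposite directions between the GFP groups under TMM scaling (with spike-in scaling DKK3 is at -0.16, not called).

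The same comparison within dBRD9-A uses none of the libraries of the DMSO comparison. It shares the fit, the spread estimate, the filter and the induced cells with it, so it is not an independent repeat. Of the 28 genes, 17 were higher and 8 lower in SMARCB1 cells, where 63.3% of all genes were called, 33% higher and 30.4% lower. With spike-in scaling the split was 11 higher and 11 lower, and the median of all genes in this comparison was -0.319. The share of all genes called with spike-in scaling is not given, here or below. Counts of calls under it are therefore not results about the Wnt genes in particular. Libraries did not overlap for 26 of the 28, against 66.2% of all genes. As in DMSO, these counts include LEF1, FZD8 and WNT10A, whose difference was fixed by the filter. They also include WNT3 and WNT6, which passed it through their high state. There were 25 genes called in both treatments, and all 25 had the same direction under TMM. DKK1 was at -6.66 ± 0.04 on the log2 scale, FRZB at -5.07 ± 0.22 and WNT11 at -3.99 ± 0.10. LGR4 was at 2.50 ± 0.04, FZD7 at 2.48 ± 0.05, AXIN2 at 2.48 ± 0.07 and WNT9A at 2.40 ± 0.20. The bounds against the floor were at least 4.57-fold higher for LEF1, at least 5.82-fold higher for FZD8 and at least 2.94-fold lower for WNT10A. FZD1 (0.26, adjusted p = 0.264), FZD5 (0.03, adjusted p = 0.506) and WNT4 (-0.70, adjusted p = 0.0618) were not called by edgeR.

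Under TMM scaling, dBRD9-A by itself changed few of these genes in GFP cells, which lack SMARCB1. Of the 28, 6 were called, 3 higher (DKK1, FZD4 and FZD7) and 3 lower (DKK3, WNT11 and WNT2B), which is 21.4% against 15.9% of all genes. The called shares over all genes were 7.43% higher and 8.47% lower. None of the 28 was called with a difference of 1 or more on the log2 scale, as 0.908% of all genes were, and the libraries did not overlap for 12 of them, against 34% of all genes. The direction depended on the scaling, since spike-in scaling moved the median of all genes to 0.357 and gave 20 higher and 0 lower, with WNT2B at 0.19, WNT11 at 0.04 and DKK3 at -0.16 (edgeR, adjusted p = 0.0791). With the same scaling DKK1 was at 0.90, FZD4 at 0.87 and FZD7 at 0.59.

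Of the 6 called genes, DKK1 had the largest change. It went from 202, 201 and 201 CPM in GFP libraries with DMSO to 287, 290 and 299 CPM with dBRD9-A, with no overlap. Its log2 fold change was 0.54 ± 0.03 (edgeR, adjusted p = 5.64e-10), and per length it reached 132 CPM per kilobase, the highest of any of the 50 genes in any group. DKK3 went down, from 21.8, 23.0 and 23.1 CPM to 17, 15.1 and 15.4, a log2 fold change of -0.51 ± 0.05 (adjusted p = 1.07e-06). The treated libraries did not overlap those with DMSO for either antagonist. FZD4 rose from 3.09, 3.05 and 3.25 CPM to 5.07, 4.19 and 4.12 (0.51 ± 0.09, adjusted p = 0.00104), with replicate 1 the highest of the treated libraries. FZD7 had 8.91, 7.87 and 9.15 CPM with dBRD9-A, above all 3 DMSO libraries by a small margin (0.23 ± 0.06, adjusted p = 0.0157), and the call was lost without GFP DMSO replicate 1 (0.0784), GFP dBRD9-A replicate 1 (0.0758) or GFP dBRD9-A replicate 3 (0.0804). Under TMM scaling WNT11 fell from 31.1, 34.2 and 31.6 CPM to 25.9, 25.4 and 26.2 (-0.32 ± 0.07, adjusted p = 0.00257). WNT2B fell under TMM from 207, 218 and 214 CPM to 189, 188 and 190 (-0.17 ± 0.03, adjusted p = 0.000222). The summed marker level of other cell types given above, mostly PDGFRB, was also lower in the GFP libraries with dBRD9-A, and its part was not tested.

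**Figure D4:**
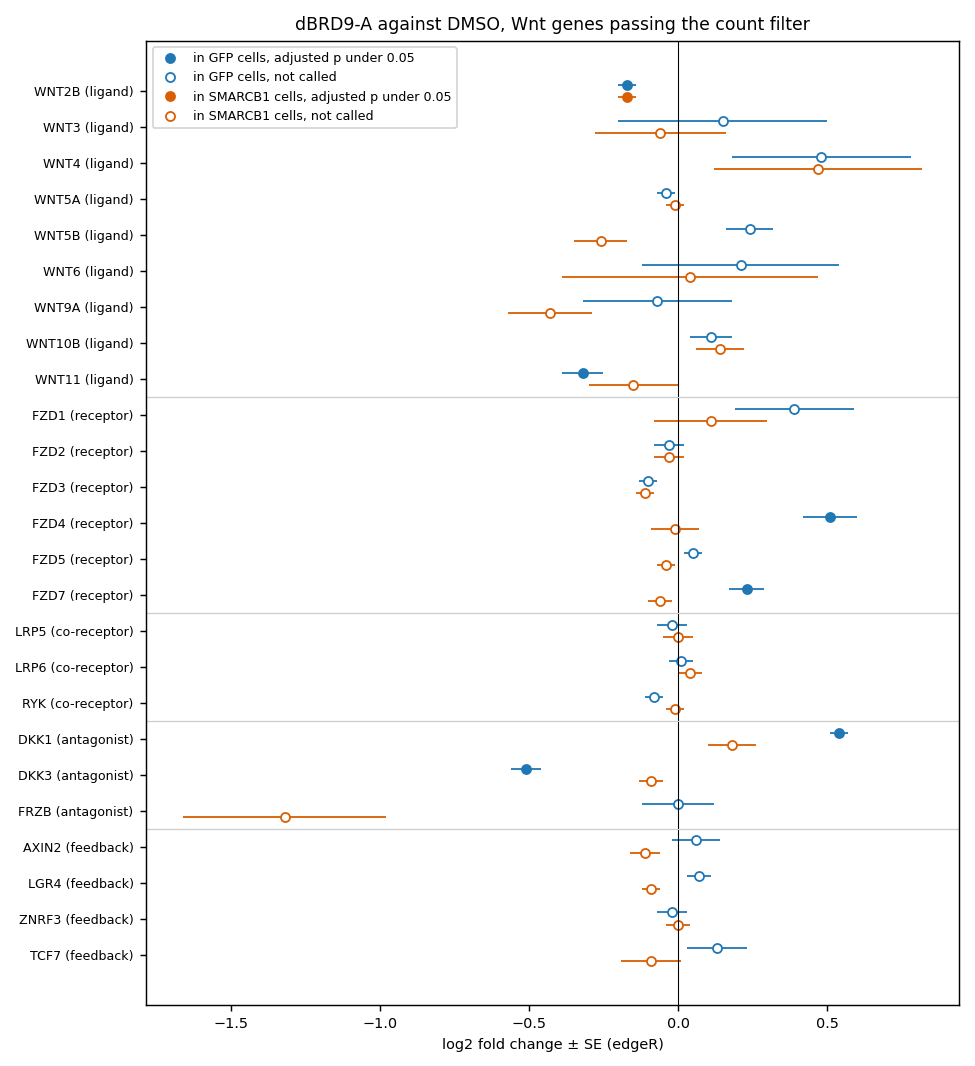
Log2 fold change of dBRD9-A against DMSO (x axis) for 25 tested Wnt genes in GFP cells (blue) and SMARCB1 cells (orange), with bars of 1 SE from edgeR and filled points for adjusted p under 0.05. In GFP cells DKK1, FZD4 and FZD7 are filled on the right and DKK3, WNT11 and WNT2B on the left (with spike-in scaling WNT2B and WNT11 turn to 0.19 and 0.04), in SMARCB1 cells WNT2B is filled, and FRZB has the largest fall there with a wide bar.

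In SMARCB1 cells dBRD9-A was followed by 1 call among the 28 genes, 3.57% against 1.93% of all genes (0.679% higher and 1.25% lower). With spike-in scaling there were 6 calls, 0 higher and 6 lower. Libraries did not overlap for 10 of the 28, against 16.9% of all genes. The called gene was WNT2B, with 246, 251 and 257 CPM in DMSO and 226, 222 and 224 with dBRD9-A. The libraries did not overlap, and the log2 fold change was -0.17 ± 0.03 (edgeR, adjusted p = 0.00212). Under TMM this was the value of WNT2B in GFP cells too, while spike-in scaling gave -0.30 in SMARCB1 cells and 0.19 in GFP cells, opposite in direction, with a called interaction of -0.49 (adjusted p = 3.24e-05). WNT2B was the only gene of the 28 called for dBRD9-A in both cell states under TMM scaling. FRZB, already low, had the largest difference. Its counts were 14, 12 and 24 in DMSO and 4, 13 and 3 with dBRD9-A, with replicate 2 the high one of the treated libraries in counts. In CPM the groups were 0.366, 0.302 and 0.413 against 0.0994, 0.240 and 0.0698, with no overlap, and the log2 fold change of -1.32 ± 0.34 was not called (adjusted p = 0.0609). FRZB was called with DESeq2 (-1.34, adjusted p = 0.0377), without the filter on low counts (0.014), with spike-in scaling (-1.47, adjusted p = 0.0122) and without SMARCB1 dBRD9-A replicate 2 (-2.09, adjusted p = 0.00611).

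The difference between the dBRD9-A responses of the 2 cell states was tested as an interaction, SMARCB1 response minus GFP response. Of the 28 genes, 5 were called, 1 higher and 4 lower, which is 17.9% against 3.8% of all genes (2.15% higher and 1.65% lower). The 5 were DKK3 at 0.43 ± 0.06, FZD4 at -0.52 ± 0.12, WNT5B at -0.50 ± 0.12, DKK1 at -0.36 ± 0.08 and FZD7 at -0.29 ± 0.07 on the log2 scale. With spike-in scaling the median of all genes was -0.491 and the calls were 0 higher and 20 lower, with DKK3 at -0.07. Without the share of all genes called under that scaling, these calls cannot be set apart from the shift of all genes. DKK3 had responses of -0.51 in GFP and -0.09 in SMARCB1 cells, and an adjusted p of 0.000627. DKK1 had 0.54 and 0.18, FZD4 0.51 and -0.01, and FZD7 0.23 and -0.06. Of these genes, 4 were also called for dBRD9-A in GFP cells, with libraries that the 2 tests share. WNT5B had 8.63, 8.84 and 9.23 CPM in GFP cells with DMSO and 10.5, 10.3 and 10.6 with dBRD9-A, but 6.41, 7.28 and 6.48 CPM in SMARCB1 cells with DMSO and 4.70, 5.88 and 6.14 with dBRD9-A. Every treated GFP library stood above every GFP library with DMSO and every treated SMARCB1 library below every one with DMSO, by 0.24 (adjusted p = 0.0557) and -0.26 (adjusted p = 0.183), neither of which was called by itself. The number of calls rested on single libraries. It was 2 without GFP DMSO replicate 1, GFP dBRD9-A replicate 1, GFP dBRD9-A replicate 3 or SMARCB1 DMSO replicate 2, and 3 without SMARCB1 DMSO replicate 1, GFP DMSO replicate 2 or, for the degrader, SMARCB1 dBRD9-A replicate 3. Outside of spike-in scaling, DKK3 kept its call in every alternative tried. FRZB was not called in the interaction (-1.32 ± 0.37, edgeR, adjusted p = 0.0547), but was with DESeq2 (0.0417), without the filter on low counts (0.0186), with spike-in scaling (-1.83) and without SMARCB1 dBRD9-A replicate 2 (0.00458).

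Other genes of the pathway were taken from a list of 63, of which 52 were tested. The list rests on general knowledge of the pathway but was chosen with earlier results of these data known. Its called shares, here and below, are therefore descriptive. In DMSO, 26 were higher and 15 lower with SMARCB1 (78.8% called against 65% of all genes), and with spike-in scaling 32 and 11. Among the 13 nuclear genes TLE1 and TLE3, co-repressors that bind TCF/LEF factors, had the widest differences. Their relatives TLE2 (-0.25, not called) and TLE4 (-0.36) differed less on the log2 scale, so this is not a trait of the family. TLE1 had 3.23, 3.17 and 3.30 CPM in GFP libraries and 130, 121 and 130 CPM in SMARCB1 libraries, 39.2-fold higher (edgeR, adjusted p = 2.45e-20). TLE3 went the other way, from 10.6, 11.1 and 10.6 CPM to 0.916, 1.08 and 0.808, which is 11.6-fold lower (adjusted p = 7.95e-15). Both TLE1 and TLE3 had narrow groups far apart, and in dBRD9-A their log2 fold changes were 5.67 and -3.73. The planar polarity genes PRICKLE1 and VANGL1 rose by 3.35 ± 0.26 and 1.84 ± 0.04 on the log2 scale. CTNNB1, which encodes β-catenin itself and is named here after its values were seen, had 485 ± 3.77 and 635 ± 11.3 CPM (SD, n = 3) in the GFP and SMARCB1 groups, higher by 0.39 on the log2 scale.

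In GFP cells dBRD9-A gave 14 calls among the 52, 6 higher and 8 lower (26.9% against 15.9% of all genes), and with spike-in scaling 41 higher and 1 lower. PYGO1, a co-activator of β-catenin, had 253, 283 and 265 CPM in DMSO and 173, 169 and 185 with dBRD9-A, a log2 fold change of -0.60 ± 0.05 (edgeR, adjusted p = 1.11e-07). SOST, an inhibitor of LRP5 and LRP6 best known from bone, rose from 28.6, 26.0 and 26.7 CPM to 34.9, 35.7 and 33.7 CPM (0.36 ± 0.04, adjusted p = 1.13e-05). CELSR2, a polarity cadherin, was at -0.45 (with spike-in scaling -0.09, adjusted p = 0.481), and TLE1 at -0.42 (adjusted p = 0.0241). The call of TLE1 was lost with spike-in scaling (-0.06) and without GFP DMSO replicate 1 (0.0602), GFP DMSO replicate 3 (0.0739), GFP dBRD9-A replicate 1 (0.106) or GFP dBRD9-A replicate 3 (0.104). In SMARCB1 cells dBRD9-A gave 3 calls of 52 (5.77% against 1.93% of all genes), namely DACT3, a dishevelled inhibitor, at 0.46, PYGO1 at -0.23 and GPC3, a glypican, at -0.12. That count was 0 without SMARCB1 DMSO replicate 2, 1 without SMARCB1 DMSO replicate 3, and 0 when the fit held the compared groups only. With spike-in scaling it was 8, 0 higher and 8 lower, and DACT3 was not called (0.32, adjusted p = 0.112). The interaction was called for SOST (-0.38), WLS, the carrier that takes ligands to the cell surface (-0.25), TLE4 (-0.21) and PYGO1 (0.37, but -0.12 with spike-in scaling), 4 of 52 or 7.69% against 3.8% of all genes. With spike-in scaling 40 of the 52 were called, 0 higher and 40 lower. WLS had 711, 687 and 740 CPM in GFP cells with DMSO and 817, 872 and 846 with dBRD9-A, but 706, 682 and 706 in SMARCB1 cells with DMSO and 704, 675 and 705 with dBRD9-A, so its rise was seen in the GFP libraries.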

How the data were processed

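RNA extraction used Qiagen RNeasy plus and library construction TruSeq Stranded mRNA, per the labels' protocols. The deposited tables hold expected counts per gene, which the authors made with STAR and RSEM 1.3.1 on GRCh37/hg19, per the submitters' processing notes; the annotation and the use of strand are not given in the sources used here. Of the expected counts in the tables, 2.57% were not whole, and all were rounded. The 40 spike-in identifiers (0.9634% to 1.302% of a library's counts) stayed out of library sizes and tests. The 50 genes and the other lists were chosen with earlier results of these data known.

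Genes passing filterByExpr (minimum count 10; 15750 genes) were fitted with edgeR 4.0.16 in R 4.3.3, with TMM factors of 0.9765 to 1.016, 1 coefficient per group over 12 libraries, the quasi-likelihood test and Benjamini-Hochberg adjustment over all genes. This script was tested on simulated data. SE is the log2 fold change divided by the square root of F. Adjusted p values are edgeR's unless another tool is named. Values per kilobase use the union of exons in GENCODE 29, matched by identifier, and serve to compare genes. Bounds use a floor of 3 counts per library at the highest floor among the libraries of the low group, and cover counting error only. Values per library are given for genes called and differing by 1 or more on the log2 scale for SMARCB1 in DMSO, or called in either dBRD9-A comparison or the interaction; of the list of 63, up to 4 called genes per comparison with the largest change and a mean of at least 50 counts are named. Genes overlapping another gene on the same strand (11 of the 50) or only on the opposite strand (17) may share reads. Alternatives were RLE size factors, spike-in scaling, no filter, DESeq2 1.42.0, the compared groups alone, a replicate block and leaving out each library. Every pair of replicates differed beyond counting noise (chi-square per degree of freedom 3.028 to 25.98), so each library counted once.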

Additional observations from a re-analysis of the deposited data

Results flagged for a closer look

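The response to dBRD9-A differed between SMARCB1 and GFP cells, by the test of the interaction under TMM scaling, for 9 genes. These were 5 of the 28 Wnt genes (17.9%) and 4 of the 52 other pathway genes (7.69%), against 3.8% of all genes. Of the Wnt genes, DKK3 had a difference of 0.43 on the log2 scale (edgeR, adjusted p = 0.000627), with responses of -0.09 in SMARCB1 and -0.51 in GFP cells. With spike-in scaling the difference of DKK3 turned to -0.07 and was not called. FZD4 had -0.52 (adjusted p = 0.0217, lost without GFP DMSO replicate 1 at 0.0544 or GFP dBRD9-A replicate 1 at 0.0696). WNT5B had -0.50 (adjusted p = 0.0247, up to 0.0755 when a library was left out). DKK1 had -0.36 (adjusted p = 0.0297, and 0.211 without SMARCB1 DMSO replicate 2). FZD7 had -0.29 (adjusted p = 0.0328, lost in 8 of 17 alternatives). Of the other pathway genes, SOST had -0.38 (adjusted p = 0.000486), WLS -0.25 (adjusted p = 0.00292), PYGO1 0.37 (adjusted p = 0.00432, but -0.12 with spike-in scaling) and TLE4 -0.21 (adjusted p = 0.0347, lost in 9 of 17 alternatives). SOST and WLS kept their calls in all 17 alternatives. The cause of these differences was not tested.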

How the results depend on the processing

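Of 63 results for single genes, 45 kept their direction and call in every alternative that tested them, 13 lost the call somewhere and 5 reversed, all 5 with spike-in scaling. WNT10A did not pass the filter with the compared groups alone, in either SMARCB1 comparison, and was not tested there. The reversals were WNT2B (0.19) and WNT11 (0.04) for dBRD9-A in GFP cells, WNT2B for SMARCB1 in dBRD9-A (-0.08), and DKK3 (-0.07) and PYGO1 (-0.12) in the interaction. Spike-in scaling gave 20 calls for dBRD9-A in GFP cells, 6 for dBRD9-A in SMARCB1 cells and 20 for the interaction, in place of 6, 1 and 5. The share of all genes called under it is not given, for these counts or for those of the list of 63. For dBRD9-A in SMARCB1 cells the calls were 2 without the filter and 2 with DESeq2. Leaving out 1 library gave 26 to 28 calls for SMARCB1 in DMSO, 25 to 26 for SMARCB1 in dBRD9-A, 5 to 8 for dBRD9-A in GFP cells, 1 to 2 for dBRD9-A in SMARCB1 cells and 2 to 6 for the interaction. The cause of these shifts was not tested, except that leaving out a library leaves fewer samples and spike-in scaling moves all genes together. The fitted fold changes of LEF1, FZD8 and WNT10A rest on counts near 0, so bounds are given for them.

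The replicate block gave 27 calls for SMARCB1 in DMSO, 25 for SMARCB1 in dBRD9-A, 6 for dBRD9-A in GFP cells, 1 in SMARCB1 cells and 5 for the interaction, as without it, and of the named genes TLE4 alone lost its interaction call (adjusted p = 0.0599). For libraries with the same number, the 18 correlations of their deviations from group means ran from -0.0892 to 0.0573, none over 0.1. Those of libraries with different numbers ran from -0.054 to 0.0893. With 3 libraries per group mean, this check cannot show that libraries with the same number shared no culture or batch.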

Other observations

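Other genes of the pathway, named here after their values were seen, are given for the secreted side and for targets. SOST, a secreted inhibitor of LRP5 and LRP6, was higher in SMARCB1 cells with DMSO, opposite to DKK1. It had 27.1 ± 1.35 CPM (SD, n = 3) in GFP cells and 81.2 ± 1.17 in SMARCB1 cells (log2 fold change 1.58, edgeR, adjusted p = 4.09e-16). SOSTDC1 went from 0.9 ± 0.166 to 0.235 ± 0.0895 CPM (-1.98, edgeR, adjusted p = 3.52e-05), with 12, 10 and 8 counts in the SMARCB1 libraries, near the filter's minimum of 10. RSPO3, the R-spondin ligand of LGR4, was the 1 R-spondin that passed the count filter, at 2.41 ± 0.0763 CPM (SD, n = 3) in GFP cells with DMSO and 4.22 ± 0.26 in SMARCB1 cells (log2 fold change 0.82, edgeR adjusted p = 3.88e-06). RSPO1 had at most 13 counts in any library, RSPO2 at most 9 and RSPO4 0. NOTUM, a secreted enzyme that removes the lipid from Wnt ligands, had 0.219 ± 0.0663 CPM and 0.83 ± 0.186 CPM in the same groups (log2 fold change 1.97, adjusted p = 4.18e-06). Among genes often listed as targets of β-catenin, MYC went from 189 ± 1.56 to 64.2 ± 1.54 CPM (log2 fold change -1.56, adjusted p = 1.21e-16) and CCND1 from 204 ± 3.8 to 164 ± 7.93 CPM (-0.31, adjusted p = 8.05e-07), both in the direction opposite to AXIN2. TNFRSF19 had 1 count in each GFP library with DMSO and 17, 8 and 11 in the SMARCB1 libraries (at least 3.83-fold higher), and SP5 had 0 counts in all 12 libraries.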
